A study of Mus musculus with 7 samples.

Results

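Galectins are lectins that bind beta-galactoside sugars on glycoproteins and glycolipids. They are made in the cytosol, leave cells without a signal peptide, and cross-link glycan-bearing receptors at the surface, while inside the cell some of them mark damaged endosomes and lysosomes whose inner glycans have become exposed. Macrophages are a main source of galectin-3 and also make galectin-1, galectin-8 and galectin-9. Lgals3bp is not itself a galectin but a secreted, heavily glycosylated protein of the scavenger receptor cysteine-rich family that galectins bind.

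The genes described here are the 5 rows of the gene table whose symbols are Lgals1, Lgals3, Lgals3bp, Lgals8 and Lgals9, out of 25571 rows. All 5 passed the filter on low counts, as did 15822 rows in all.

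RNA was sequenced from CD11b+ tumour-associated macrophages sorted out of T387 glioblastoma xenografts, a human tumour grown orthotopically in the brains of NSG mice. The treated group of 4 libraries came from mice given Pracinostat, an inhibitor of histone deacetylases, by oral gavage, 30 mg/kg per dose and 4 doses weekly over 3 weeks, with the first on day 7 of tumour growth. The 3 control libraries came from mice given the solvent alone, which contains DMSO, on the same schedule. The labels also give 3 mg/kg for the prepared drug. All mice in both groups carried the same tumour and the NSG background, which lacks T, B and NK cells, so the lymphocyte partners of galectin-1 and galectin-9 are missing from this host. The samples are labelled as biological replicates but are not tied to individual animals, so the p-values measure the spread between these samples only.

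Depth ran from 10142753 to 16950597 counts per library, with 16319 to 19244 genes detected. Macrophage identity genes took 0.862 to 1.04% of the counts in the DMSO libraries and 0.936 to 1.21% in the Pracinostat libraries, and none of these 11 genes was at 0 in any library. All 6 lymphocyte markers with a row in the table were at 0 in at least 1 library. Pracinostat library 3 stood apart in several of the measures below: monocyte-derived macrophage markers took 0.320% of its counts, against 0.773 to 1.39% in the other 6 libraries, and microglia markers 0.927%, against 0.508 to 0.628%. DMSO library 2 and Pracinostat library 1 held most of the fibroblast transcripts, at 0.117% and 0.0729% of counts, against 0.00245 to 0.00697% in the other 5. For the 5 members, the fold changes that these 3 libraries move most are given with and without them. In bulk RNA, fewer cells of a type and less RNA per cell cannot be told apart.

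No galectin gene and not Lgals3bp passed the test between Pracinostat and DMSO. By edgeR's quasi-likelihood test with Benjamini-Hochberg adjustment over all 15822 genes, 0 of 5 members had an adjusted p under 0.05, where the share of all genes called was 0%. Each member had an adjusted p of 1.00 (0.99984 before rounding). At an unadjusted p under 0.05 the members gave 0 of 5, while 661 genes, or 4.18% of all, lay under it, 2.81% higher and 1.37% lower with Pracinostat. The fold change was positive for 2 of 5 members and for 52.3% of all genes. DESeq2, another count test, called 27 genes (0.16%) and limma-voom 0 (0%), with no member among them. Groups that did not overlap, meaning that every library of one group lay above every library of the other, were found for 1 member, Lgals3bp, which was higher with Pracinostat, and for 6.1% of all genes in either direction, 3.51% higher and 2.59% lower. Together the 5 members took 0.134 to 0.148% of the counts in the DMSO libraries and 0.129 to 0.143% in the Pracinostat libraries.

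**Figure D1:**
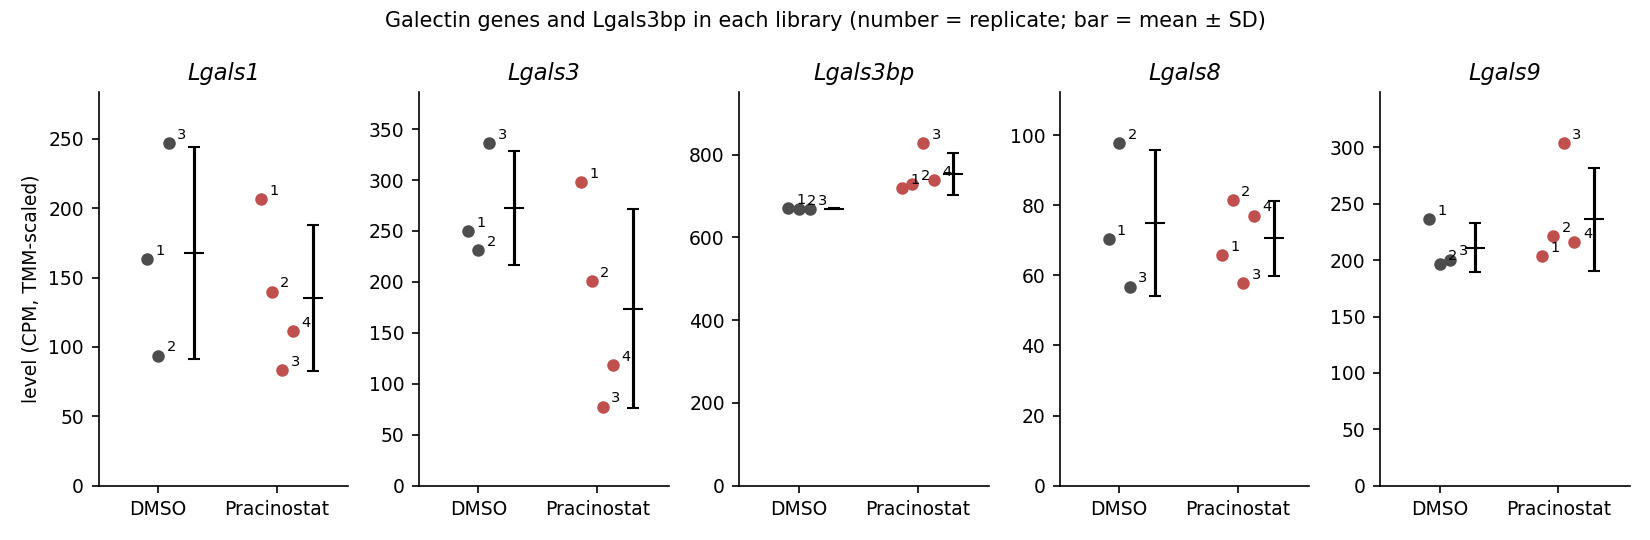
Level of each member in CPM (counts scaled by TMM-adjusted library size) in every library, 3 DMSO in grey and 4 Pracinostat in red, with the replicate number at each point and the mean ± SD beside it. Lgals1 spreads widely within both groups and Lgals3 mainly within the Pracinostat group, whereas the DMSO values of Lgals3bp lie within 3 CPM of each other and below all 4 Pracinostat values.

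Lgals3 encodes galectin-3, the chimera-type galectin that forms pentamers on glycans and gathers at damaged lysosomes. It stood at 249.6, 231.6 and 336 CPM in DMSO libraries 1 to 3, and at 298, 200.6, 77.7 and 118.6 CPM in Pracinostat libraries 1 to 4. Pracinostat libraries 3 and 4 held the 2 lowest values, while Pracinostat library 1 lay above 2 of the 3 controls, so the groups overlapped. The means were 272.4 ± 55.8 CPM (SD, n = 3) and 173.75 ± 97.4 CPM (SD, n = 4). The log2 fold change, Pracinostat over DMSO, was -0.65 ± 0.44 (SE), with a 95% interval from -1.67 to 0.37. It was the farthest from 0 among the 5 members and did not pass (edgeR, unadjusted p = 0.179, adjusted p = 1.00). Without Pracinostat library 3 the log2 fold change was -0.41, and without Pracinostat library 1 it was -1.03. Without both collagen-rich libraries it was -1.14. None of these passed after adjustment over all genes.

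Lgals1 encodes galectin-1, a small prototype galectin that acts as a dimer and is known in glioma as a product of both tumour cells and macrophages. Its DMSO libraries 1 to 3 stood at 163, 93.8 and 247 CPM. In Pracinostat libraries 1 to 4 it stood at 206, 139.85, 83.5 and 111 CPM. DMSO library 2 was as low as the lower Pracinostat libraries, and Pracinostat library 1 was second only to DMSO library 3. The means were 167.84 ± 76.6 CPM (SD, n = 3) and 135.23 ± 52.7 CPM (SD, n = 4), a log2 fold change of -0.31 ± 0.38 with a 95% interval from -1.18 to 0.56 (edgeR, unadjusted p = 0.433, adjusted p = 1.00). This direction rested on 1 control: without DMSO library 3 the log2 fold change was 0.07. It was -0.60 without DMSO library 2 and -0.87 without both collagen-rich libraries.

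Lgals9 encodes galectin-9, a galectin with a pair of carbohydrate-recognition domains joined by a linker, known as an interferon-inducible ligand of the checkpoint receptor Tim-3. It stood at 236.6, 196.5 and 200.45 CPM in DMSO libraries 1 to 3 and at 203.7, 221.1, 303.6 and 216 CPM in Pracinostat libraries 1 to 4. Apart from Pracinostat library 3, which was the highest, all libraries lay between 196.5 and 236.6 CPM. The log2 fold change was 0.16 ± 0.17, with a 95% interval from -0.21 to 0.53 (edgeR, unadjusted p = 0.363, adjusted p = 1.00), and 0.02 without Pracinostat library 3.

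Lgals8 encodes galectin-8, the other tandem-repeat galectin of this set, which in human cells brings the autophagy receptor NDP52 to damaged vacuoles. Its values were 70.4, 97.7 and 56.8 CPM in the DMSO libraries and 65.8, 81.5, 57.9 and 77.1 CPM in the Pracinostat libraries. Every Pracinostat value lay inside the range of the controls. The log2 fold change was -0.09 ± 0.21, with a 95% interval from -0.54 to 0.37 (edgeR, unadjusted p = 0.689, adjusted p = 1.00). Its sign turned to 0.15 without DMSO library 2 and to 0.19 without both collagen-rich libraries. Exons of Lgals8 overlap those of Heatr1, a ribosome biogenesis gene on the opposite strand, and Lgals8 counts are uncertain because no source used here gives the strand setting of the counting.

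Lgals3bp, the galectin-binding glycoprotein, stood at 671, 669 and 669 CPM in the DMSO libraries. In Pracinostat libraries 1 to 4 it stood at 718, 728, 827 and 737 CPM. All 4 treated libraries lay above all 3 controls. The share of all genes with groups separated in that direction was 3.51%. The means were 669.47 ± 1.32 CPM (SD, n = 3) and 752.72 ± 50.2 CPM (SD, n = 4), a 1.12-fold difference with a 95% interval from 0.92-fold to 1.37-fold. The log2 fold change of 0.17 ± 0.13 did not pass (edgeR, unadjusted p = 0.230, adjusted p = 1.00). It was 0.12 without Pracinostat library 3. The control values lay closer together than counting error alone would place them. The counting error of a single library, the square root of its count, came to 6.56 to 7.31 CPM in those 3. Among 155 genes of like level, 0% had a smaller SD of log2 CPM over the DMSO libraries and 11.6% over the Pracinostat libraries. The gap between the groups thus stood against a small spread in both, and most of all in the controls.

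**Figure D2:**
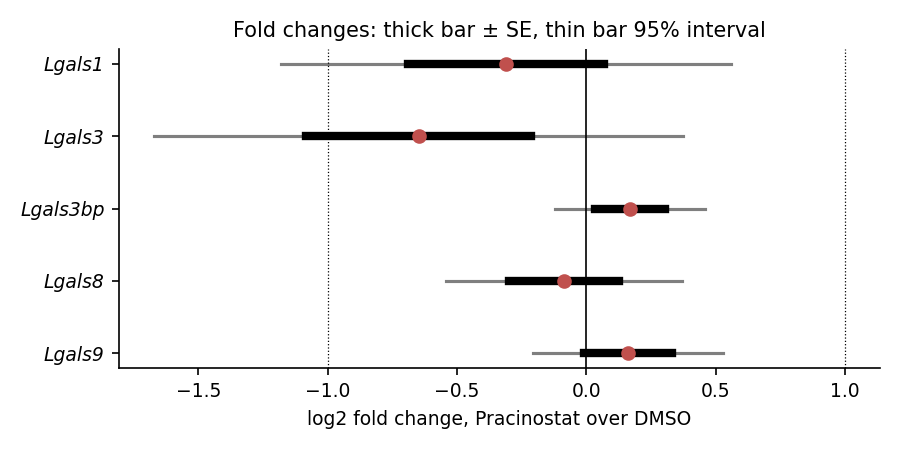
Log2 fold change of each member, Pracinostat over DMSO, with the SE as a thick bar and the 95% interval as a thin bar. Dotted lines mark 2-fold differences in either direction, and every interval includes 0, with that of Lgals8 from -0.54 to 0.37 and that of Lgals3 reaching -1.67.

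The width of these intervals differed with the gene. The fit takes part of each gene's spread from genes of like level, so a width does not follow from the gene's own spread alone. As folds, the 95% interval of Lgals3bp ran from 0.92 to 1.37, that of Lgals9 from 0.87 to 1.44 and that of Lgals8 from 0.69 to 1.29, whereas those of Lgals1 and Lgals3 include decreases of more than 2-fold. The SD of log2 CPM pooled within groups was 0.07 for Lgals3bp, and 1.29% of genes of like level had a smaller one. For Lgals1 it was 0.61, larger than that of 96.8% of 1217 genes of like level. For Lgals3 it was 0.68, larger than that of 98.1% of 971 such genes. For Lgals8 and Lgals9 the shares were 63.6% and 50.2%, near the middle. Lgals1 was among the more variable genes of its level in both groups, with an SD of 0.70 over the DMSO libraries (larger than that of 99.3% of like genes) and 0.55 over the Pracinostat libraries (94.3%). For Lgals3 the SD was 0.28 over the DMSO libraries (75.1%) and 0.85 over the Pracinostat libraries (98.2%), and this difference in spread was not tested.

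Levels of different genes were compared per kilobase of the longest coding transcript, as CPM per kb. In the mean of the DMSO libraries Lgals3bp was the highest at 287 ± 0.565 CPM per kb (SD, n = 3), followed by Lgals1 at 209.8 ± 95.7, Lgals3 at 192 ± 39.3, Lgals9 at 133 ± 13.9 and Lgals8 at 26.4 ± 7.32. In the Pracinostat libraries the order was Lgals3bp at 323 ± 21.5 CPM per kb (SD, n = 4), Lgals1 at 169 ± 65.9, Lgals9 at 149 ± 28.7, Lgals3 at 122 ± 68.6 and Lgals8 at 24.8 ± 3.77. Lgals8 was the lowest in every library, and Lgals3bp the highest in every library but DMSO 3, where Lgals1 stood at 308 against 287 CPM per kb. The means of the middle 3, Lgals1, Lgals3 and Lgals9, lie within their SDs of each other in the Pracinostat group, as do Lgals1 and Lgals3 in the DMSO group. The order was the same with the length of all exons of the gene in place of 1 transcript.

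Per kb, Lgals3 and Lgals9 changed places in 2 of the 7 libraries. The log2 ratio of Lgals3 to Lgals9 counts, which does not depend on the scaling of a library, was 0.08, 0.24 and 0.75 in the DMSO libraries and 0.55, -0.14, -1.97 and -0.86 in the Pracinostat libraries. In CPM per kb, Lgals3 stood below Lgals9 in Pracinostat library 3 (54.8 against 191) and Pracinostat library 4 (83.6 against 136). The mean log2 ratio differed by -0.96 between the groups, and Pracinostat library 1 lay among the controls. The ratio of Lgals3 to Lgals3bp showed the same order of libraries at the low end, with -1.43, -1.53 and -0.99 in the DMSO libraries and -1.27, -1.86, -3.41 and -2.64 in the Pracinostat libraries. The ratio of Lgals3bp to Lgals9 was steadier, from 1.45 to 1.82 over the 7 libraries. None of the 10 ratios between members separated the groups.

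**Figure D3:**
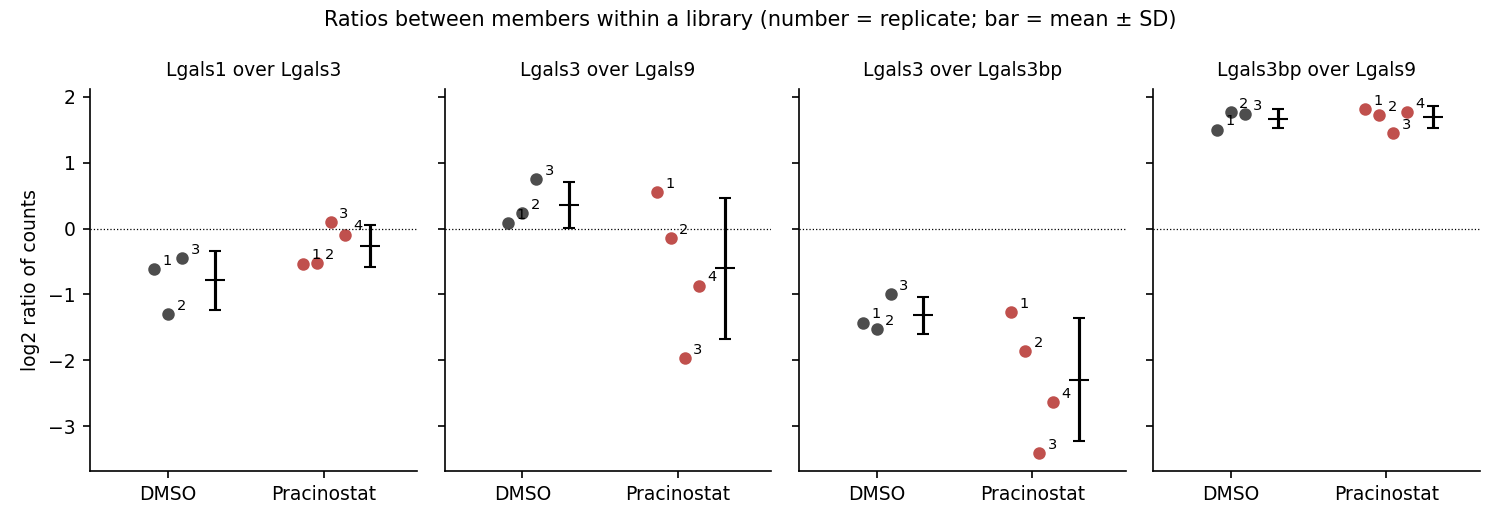
Log2 ratio of the counts of 2 members within each library, 3 DMSO in grey and 4 Pracinostat in red, with replicate numbers and the mean ± SD beside the points; the dotted line marks equal counts. In the ratio of Lgals3 to Lgals9, Pracinostat libraries 3 and 4 lie at -1.97 and -0.86, below the other 5 libraries, which lie between -0.14 and 0.75.

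Lgals9 and Lgals3bp both had their highest level in Pracinostat library 3, where several interferon-stimulated genes were also highest, so the stretches upstream of their start sites are shown, with that of Lgals3 beside them because it was lowest in that library. Promoter windows of 300 bases, from 250 before to 50 after each start, were taken from RefSeq on GRCm38.p6, in which 4 of the 5 members were matched. Lgals1 had no entry. Each stretch below is written 5′ to 3′ on the gene's own strand and ends before the first annotated exon. Capitals mark matches to the core of the interferon-stimulated response element, written as GAAA, any 2 bases and GAAA again, and searched on both strands. Lgals9 is at chr11:78984947-78985174 (minus strand), Lgals3bp at chr11:118402093-118402209 (minus strand) and Lgals3 at chr14:47373610-47373812 (plus strand).
Lgals9: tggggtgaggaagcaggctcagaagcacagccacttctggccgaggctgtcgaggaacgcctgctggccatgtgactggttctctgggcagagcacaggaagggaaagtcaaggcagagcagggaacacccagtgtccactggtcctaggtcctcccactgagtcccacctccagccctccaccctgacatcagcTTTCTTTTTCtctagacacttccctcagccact
Lgals3bp: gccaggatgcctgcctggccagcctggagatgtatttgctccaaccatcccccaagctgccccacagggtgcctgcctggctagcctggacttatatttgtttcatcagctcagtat
Lgals3: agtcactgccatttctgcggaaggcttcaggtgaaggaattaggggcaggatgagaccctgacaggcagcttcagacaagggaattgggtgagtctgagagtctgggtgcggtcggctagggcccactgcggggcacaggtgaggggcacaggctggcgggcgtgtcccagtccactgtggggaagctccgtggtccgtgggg

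The Lgals9 match, on the reverse strand, lies from -55 to -46 relative to the start. A second match on the same strand lies from 16 to 25 after the start, shown in capitals with its flanks.
Lgals9, second match: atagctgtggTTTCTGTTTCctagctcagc
In the whole table, 3.44% of 32851 promoters of this length hold this core on either strand. The Lgals3bp, Lgals3 and Lgals8 windows hold no such letters. A looser form is AA, any 2 bases and GAAA, which was chosen after the sequences were seen and is contained in the core. It occurs in 23.9% of promoters and once in the Lgals3bp window, from -14 to -7. That match lies outside the Lgals3bp stretch shown above, which runs from -250 to -134 and ends at an annotated exon.
Lgals3bp, looser match: gttttctgaaAATCGAAActaggtgagg
The Lgals3 window differs in composition, with 67% G and C and 18 CpG dinucleotides against medians of 52.7% and 7 in the table, and holds GGGCGG, the GC box, in 2 places, as do 35.7% of promoters in at least 1. These matches are descriptions of letters, and binding at them was not measured.

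Interferon-stimulated genes, a class to which Lgals9 and Lgals3bp are known to belong, were split in direction. Of 37 tested, 21 were higher and 16 lower with Pracinostat, with a median log2 fold change of 0.02, the same as the 0.02 of all genes tested. None was called by edgeR, and 1 had an unadjusted p under 0.05, against 4.18% of all genes. In 3 the groups did not overlap, all higher, against 3.51% of all genes: Cxcl10, Xaf1 and Ifi35. Cxcl10, a chemokine induced by interferons, stood at 37.9, 39.3 and 58.0 CPM with DMSO and at 86.0, 72.7, 185 and 81.8 CPM with Pracinostat. Its log2 fold change was 1.24 ± 0.33 (edgeR, unadjusted p = 0.00323, not called after adjustment, for which the smallest p of any gene was 0.482), and 0.83 without Pracinostat library 3. The antiviral genes Xaf1 (0.45 ± 0.27) and Ifi35 (0.38 ± 0.23) stood higher by less. Irf7, the regulator that amplifies the interferon response, gave -0.01 ± 0.23, and Isg15, a ubiquitin-like modifier, 0.13 ± 0.33. The mean of the list, as the mean over genes of log2 CPM minus the gene's own mean, was 0.33 in Pracinostat library 3 and between -0.20 and 0.09 in the other 6.

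Over the 7 libraries the relations of Lgals9 with Lgals3bp and with 2 list scores were lost when 2 libraries were left out. For Lgals3bp and Lgals9, Pearson's r was 0.80 (exact permutation p = 0.0514, adjusted 0.171) and Spearman's rho 0.75 (exact permutation p = 0.0663, adjusted 0.398), and r was -0.07 without the 2 libraries farthest from the median, DMSO 2 and Pracinostat 3. For Lgals9 and the interferon score, r was 0.71 (exact permutation p = 0.0871, adjusted 0.225) and rho 0.21 (exact permutation p = 0.662, adjusted 0.792), and r was -0.50 without DMSO 3 and Pracinostat 3. For Lgals9 and the microglia marker score, r was 0.89 (exact permutation p = 0.0181, adjusted 0.135) and rho 0.61 (exact permutation p = 0.167, adjusted 0.589), and r was 0.29 without DMSO 2 and Pracinostat 3. Here and below, the 2 libraries left out were those farthest from the median of the list score, or of the first gene named. This narrows the range of that variable, which can itself lower r. For Lgals3bp, DMSO 2 was taken at 668.67 CPM against 668.74 CPM in DMSO 3, a gap under the counting error. Leaving out either library alone was not tested. The adjusted values are over the 30 relations computed, 10 between members and 20 between a member and a list score, which were chosen after the data were seen, and none of the 30 passed.

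Lgals1 and Lgals3 tended to vary together, and with genes of disease-associated and foamy macrophages, in relations that did not pass adjustment. In that lipid-laden state galectin-3 is a known marker. For Lgals1 and Lgals3, r was 0.81 (exact permutation p = 0.0260, adjusted 0.156) and rho 0.89 (exact permutation p = 0.0123, adjusted 0.185), and r was 0.58 without DMSO 3 and Pracinostat 3. For Lgals1 and the disease-associated score, r was 0.91 (exact permutation p = 0.00754, adjusted 0.119), rho was 0.89 (exact permutation p = 0.0123, adjusted 0.185), and r was 0.85 without Pracinostat 1 and Pracinostat 3. For Lgals3 and the same score, r was 0.85 (exact permutation p = 0.00952, adjusted 0.119), rho was 0.86 (exact permutation p = 0.0238, adjusted 0.238), and r was 0.71 without those 2 libraries. With each group's mean taken out, r with this score was 0.92 for Lgals1 and 0.96 for Lgals3, as strong as over all 7 libraries. The same held for the relations of Lgals9 above, so it is not particular to Lgals1 and Lgals3. There r within groups was 0.91 with Lgals3bp, 0.89 with the microglia score and 0.71 with the interferon score. None passed after adjustment over the 30 relations.

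**Figure D4:**
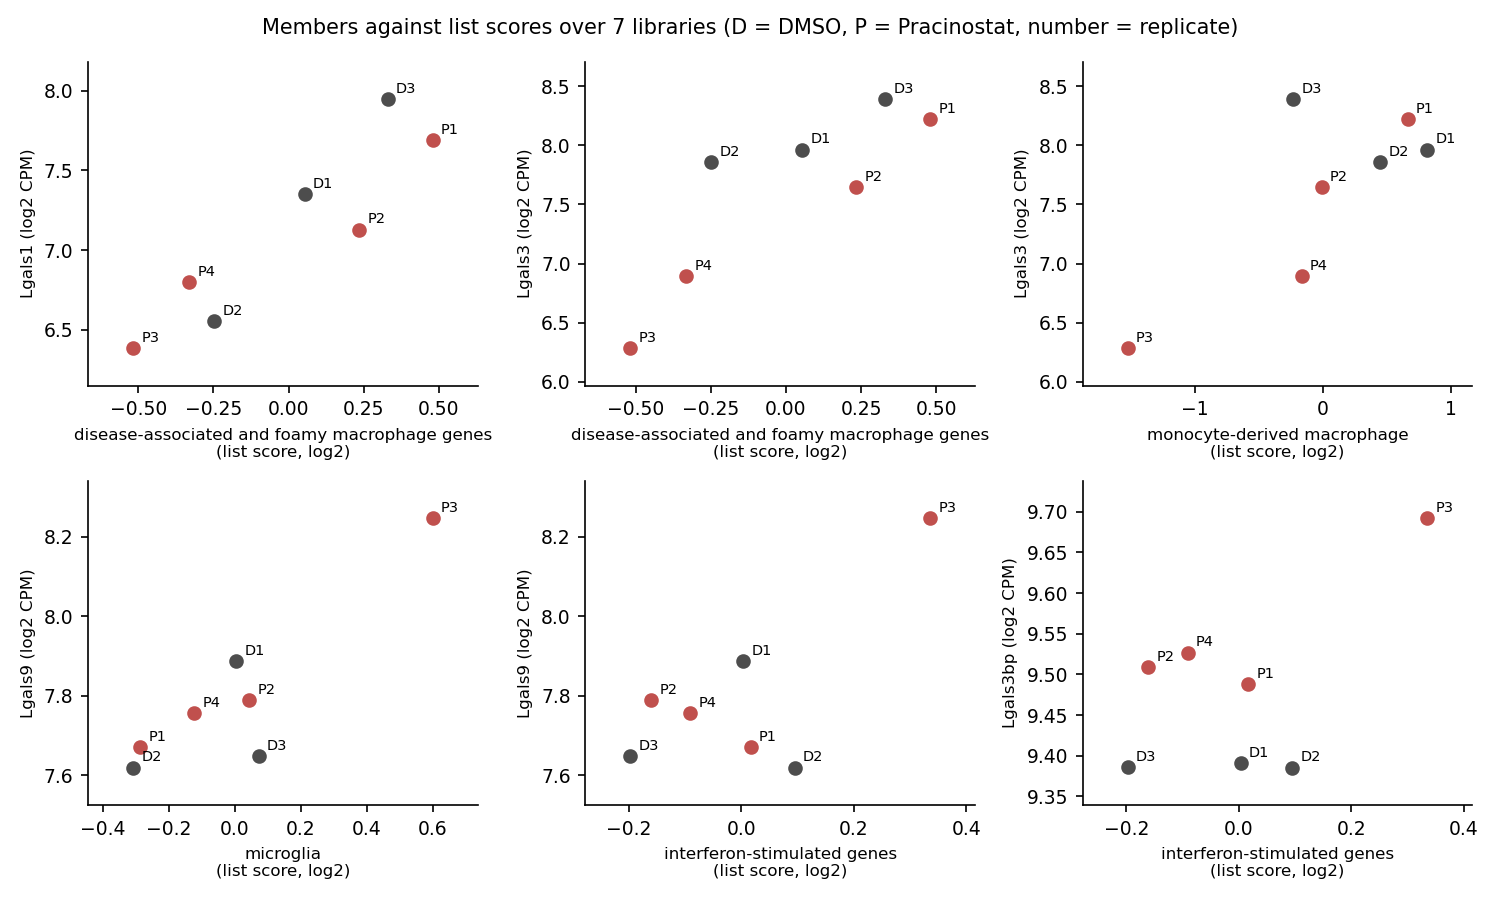
Log2 CPM of Lgals1, Lgals3, Lgals9 and Lgals3bp against list scores (mean over genes of log2 CPM minus the gene's own mean) in 7 libraries, D for DMSO in grey and P for Pracinostat in red with the replicate number. Points rise along the disease-associated score in both upper-row panels that show it (r of 0.91 and 0.85), whereas in the lower row Pracinostat library 3 stands alone at the upper right.

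Between the treatments the disease-associated genes were split in direction. Of 18 tested, 8 were higher and 10 lower, with a median log2 fold change of -0.02. None of the 18 was called and 1 had an unadjusted p under 0.05, near the 4.18% of all genes. That gene was Cst7, which encodes the cathepsin inhibitor cystatin F (1.11 ± 0.40, unadjusted p = 0.0151), higher in sign where Lgals3 was lower. Capg, an actin-capping protein, gave -0.50 ± 0.24, and Axl, a receptor for apoptotic cells, 0.30 ± 0.15. Spp1, which encodes osteopontin, gave 0.17 ± 0.27. Gpnmb, a glycoprotein of lipid-laden macrophages, stood at 1591, 1643 and 3506 CPM with DMSO and 3233, 2897, 501 and 678 CPM with Pracinostat. Like Lgals3 and Lgals1, it was lowest in Pracinostat library 3, and its log2 fold change was -0.30 ± 0.81, or 0.01 without that library.

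Markers of monocyte-derived macrophages, a population in which Lgals3 is known to be higher than in microglia, moved with Lgals3 in Pracinostat library 3. Of the 21 marker genes tested, 19 were lower and 2 higher with Pracinostat, with a median log2 fold change of -0.37. None was called and 5 had an unadjusted p under 0.05, all 5 lower, against 4.18% of all genes in either direction and 1.37% lower. Their summed share was 1.04 to 1.23% of counts with DMSO and 0.320 to 1.39% with Pracinostat, a difference within the spread (exact permutation p = 0.486, adjusted 0.779 over 12 marker lists). Of the 21, Ly6c2 was at 0 in Pracinostat library 2 and Ifitm6 at 0 in Pracinostat library 3. Microglia markers took 0.508 to 0.626% with DMSO and 0.551 to 0.927% with Pracinostat (exact permutation p = 0.514, adjusted 0.779), and none of those 16 genes was at 0. For Lgals3 and the monocyte-derived score, r was 0.77 (exact permutation p = 0.0419, adjusted 0.157) and rho 0.43 (exact permutation p = 0.354, adjusted 0.589), and r was 0.34 without DMSO 1 and Pracinostat 3. The part of these markers in the Lgals3 values was not tested. Of the 9 fibroblast markers, 5 were at 0 in some library. Their sum was high in DMSO library 2 and Pracinostat library 1, through the collagen genes. These libraries held the lowest DMSO and the highest Pracinostat level of both Lgals1 and Lgals3. The part of the collagen counts was not tested either, and the fold changes without those libraries are given above.

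The 3 genes whose log2 CPM was most like that of each member were found by Pearson's r over the 7 libraries among 5130 genes whose mean log2 CPM was 5 or more. For Lgals1 they were Lta4h, a leukotriene A4 hydrolase (0.99), Fam50a (0.98) and Rbm42, an RNA-binding protein (0.97). For Lgals3 they were Spag7 (0.99), Cipc, an inhibitor of the circadian CLOCK protein (0.98), and Anxa2, a membrane-binding annexin (0.98). For Lgals3bp they were Smarcal1, a replication fork remodeller (0.98), Cd34 (0.97) and Zeb1, a transcriptional repressor (0.96). For Lgals8 they were the corepressor Rcor1 (0.99), Shoc2, a scaffold of Ras signalling (0.97), and Parp8 (0.96). For Lgals9 they were Ifit2, an interferon-induced protein (0.97), Itgam, the integrin chain that carries the CD11b epitope used for the sort (0.97), and Ncf1, a subunit of the phagocyte NADPH oxidase (0.97). With 7 libraries such values are common, since 43, 71, 28, 21 and 30 genes reached an r of at least 0.9 with Lgals1, Lgals3, Lgals3bp, Lgals8 and Lgals9.

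Of the other galectins and galectin-related genes, 2 of 7 listed had counts, all of them low. Lgals4, an intestinal galectin, had 16, 75 and 47 counts in the DMSO libraries and 1, 0, 31 and 17 in the Pracinostat libraries. Its log2 fold change of -1.86 ± 1.40 did not pass (edgeR, unadjusted p = 0.204), and its near-identical copy Lgals6 could share its reads. The Lgals4 value was -1.19 without DMSO library 2, -0.79 without both collagen-rich libraries and -2.60 without Pracinostat library 3, so its size is not settled at these counts. Lgalsl, a galectin-related gene, had 9, 71 and 41 counts with DMSO and 30, 41, 53 and 11 with Pracinostat, a log2 fold change of -0.40 ± 0.95. Lgals2, Lgals6, Lgals7, Lgals12 and Grifin were not analysed here.

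Glycoproteins reported to bind galectins were also split in direction. Of 26 listed, 25 were tested and Tnfrsf9 was filtered out. Of these 25, 11 were higher and 14 lower, with a median of -0.01. None was called, and 1 had an unadjusted p under 0.05, near the 4.18% of all genes. That gene was Lag3, an inhibitory receptor for which galectin-3 is a reported ligand, at 49.4, 35.1 and 127 CPM with DMSO and 120.4, 257, 127 and 208 CPM with Pracinostat. DMSO library 3 reached the range of the treated libraries, and the log2 fold change was 1.34 ± 0.51 (edgeR, unadjusted p = 0.0364). It was 2.07 without DMSO library 3 and 1.01 without DMSO library 2. The galectin-9 receptor Havcr2, which encodes Tim-3, gave 0.16 ± 0.18. The engulfment receptor Mertk gave 0.00 ± 0.14, the lipid receptor Trem2 -0.14 ± 0.18 and the leukocyte phosphatase Ptprc (CD45) 0.04 ± 0.17. Lamp1, a lysosomal membrane glycoprotein rich in galectin-binding glycans, gave -0.29 ± 0.15. Itgam gave 0.30 ± 0.20, and 0.08 without Pracinostat library 3, where its level was highest. In 1 of the 25, Pdpn (podoplanin), named after its values were seen, the groups did not overlap, and it was lower with Pracinostat. Of all genes, 2.59% were separated in that direction and 6.1% in either. The log2 fold change of Pdpn was -1.11 (edgeR, unadjusted p = 0.325).

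Enzymes that build the galactose-bearing glycans to which galectins bind had a median log2 fold change of 0.22, with 11 of 16 higher and 5 lower. None of the 16 was called and 1 had an unadjusted p under 0.05, near the 4.18% of all genes. This was C1galt1c1, the chaperone of the enzyme that starts core O-glycans (0.84 ± 0.35, edgeR, unadjusted p = 0.0290). It stood at 14.6, 8.80 and 14.9 CPM with DMSO and 24.7, 13.9, 31.7 and 21.5 CPM with Pracinostat. Mgat5, which makes the branched N-glycans preferred by galectin-3, gave 0.23 ± 0.17, Mgat4a 0.38 ± 0.18 and the O-glycan branching enzyme Gcnt1 0.43 ± 0.26. The median of the list rested on Pracinostat library 4, without which it was 0.07. Enzymes that cap or remove the galactose gave 6 higher and 4 lower of 10, with a median of 0.02 and none with an unadjusted p under 0.05. Among them the sialyltransferases St3gal6 (0.39 ± 0.25), St3gal3 (0.49 ± 0.37), St3gal1 (-0.24 ± 0.21) and St6gal1 (-0.16 ± 0.17), of which the last adds the sialic acid that blocks galectin binding, differed in sign.

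Genes of damaged lysosome repair and autophagy, the pathway in which galectin-3 and galectin-8 act inside the cell, had fold changes on both sides of 0. Of 38 tested, 21 were higher and 17 lower, with a median of 0.02 and none with an unadjusted p under 0.05. The 3 with the smallest p were Lamtor1, a lysosomal anchor of mTORC1 (-0.35 ± 0.20), Map1lc3b, which encodes the autophagosome protein LC3B (-0.28 ± 0.19), and Gabarap, of the same family (-0.23 ± 0.17). Tfeb, the regulator of lysosomal genes, gave -0.13 ± 0.23, and Trim16, a partner of galectin-3 in lysosome repair, 0.22 ± 1.22.

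In the scavenger receptor cysteine-rich family, to which Lgals3bp belongs, 4 of 9 other members tested were higher and 5 lower, with a median of -0.18. An unadjusted p under 0.05 was found for 3 of them, where the share of all genes was 4.18%. Of these 3, Cd5 and Ssc5d passed the low-count filter only through the Pracinostat libraries, so they could enter the test only by being higher there. The count of 3 therefore cannot be weighed against that share. Dmbt1 and Scara5 were not analysed here, and Ssc4d did not pass the filter. Cd5l, a secreted macrophage protein that inhibits apoptosis, stood at 34.0, 22.1 and 15.1 CPM with DMSO and 7.98, 13.2, 17.1 and 3.38 CPM with Pracinostat (-1.18 ± 0.47, unadjusted p = 0.0254). Cd5, a lymphocyte receptor of the family, averaged 0.264 ± 0.229 CPM in the 3 DMSO libraries and 3.03 ± 1.53 CPM in the 4 Pracinostat libraries (SD). Ssc5d was at 0 in all 3 DMSO libraries and at 0.387 to 2.01 CPM with Pracinostat. Neither passed after adjustment over all genes, and both are at levels far under that of Lgals3bp.

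**Figure D5:**
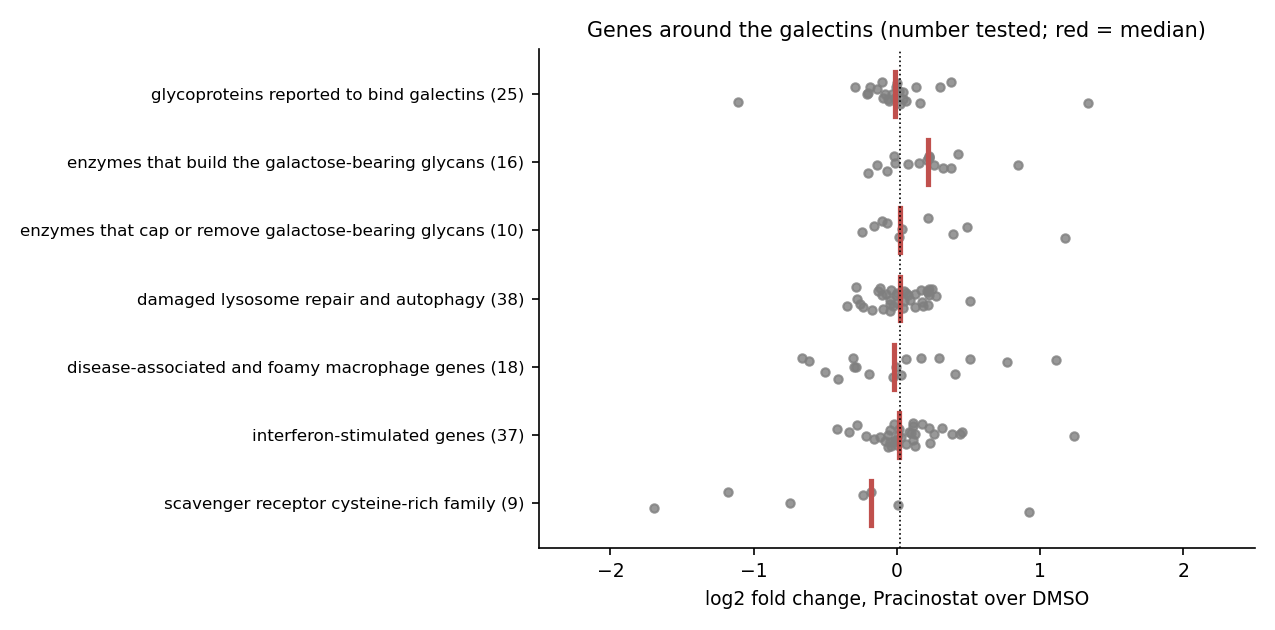
Log2 fold change, Pracinostat over DMSO, of each tested gene of 7 gene lists around the galectins, with the list's median in red and the median of all genes (0.02) as a dotted line. Medians of 5 lists lie within 0.1 of that line, and 2 genes of the scavenger receptor cysteine-rich family, Ssc5d and Cd5, lie off the axis and are not drawn.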

How the data were processed

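Total RNA of CD11b+ cells was sequenced from 1 ng of input with a stranded kit as pairs of 150-base reads, per the labels' protocols. Tools listed in the submitters' processing notes, with neither version nor role, are RSEM, STAR, DESeq2, Trim Galore, MultiQC and FastQC, and the build is GRCm39. Annotation, strand setting and any separation of human tumour reads: not given in the sources used here. The values as deposited by the authors are expected counts per gene symbol (estimated counts of the kind RSEM gives), stored as whole numbers and not normalized. They were tested here with edgeR 4.0.16 in R 4.3.3: filterByExpr (count of 10 or more), scaling by TMM, and a robust quasi-likelihood fit of 3 DMSO and 4 Pracinostat samples, with no covariate. P-values were two-sided and adjusted over 15822 genes, with a threshold of 0.05. Levels are CPM, and log2 CPM uses a prior count of 2.

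The named genes were the 5 members, other galectins with counts, from each list the 3 of smallest p, 14 genes chosen by name and the 3 genes most like each member. The members and lists were chosen with earlier results of these data known. Shares and correlations were tested by two-sided exact permutation. The smallest p possible for a share is 0.0286. Promoter sequences were read from a RefSeq table on GRCm38.p6, with transcript lengths from GENCODE M21. Tested on data simulated from these libraries over 15822 genes, edgeR found 31.3% of differences planted at 2-fold, 81.6% at 4-fold and 85.4% at 8-fold. It also called 0.0469% of unchanged genes. Each of 3 runs changed 200 genes at once, none of low level, which eases the adjustment. The rates can therefore be too high for a lone changed gene. Each simulated gene had the spread typical of its level, so these rates do not hold for genes that spread more, such as Lgals1 and Lgals3. Alternatives were other scalings, filters, DESeq2 1.42.0, limma-voom (limma 3.58.1), no robust estimation, the replicate number as a block, and leaving out each library. Leaving out both libraries with over 100 CPM of Col1a1 was added after the data were seen. The labels name no batch.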

Additional observations from a re-analysis of the deposited data

Results flagged for a closer look

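Among 83 values screened in the 4 Pracinostat libraries, 7 had 1 library far from the other 3. For independent values the rule flags about 1 in 20. The values screened share the same 4 libraries, so the count of 7 cannot be weighed against that rate. Ifit2 and Smarcal1 were also screened because they were most like Lgals9 and Lgals3bp, both highest in Pracinostat library 3. In 5 of the 7 the far library was Pracinostat library 3, the library with the lowest Lgals3 and the highest Lgals9 and Lgals3bp. Lamp1 stood at 1083.8 CPM there, against 1324 to 1371 CPM in the other treated libraries and 1326 to 1779 CPM with DMSO. Cxcl10 stood at 185 CPM, against 72.7 to 86.0 and 37.9 to 58.0 CPM. Isg15 stood at 26.7 CPM, against 12.96 to 14.5 and 15.1 to 16.3 CPM. Ifit2, the gene most like Lgals9, stood at 438 CPM, against 169 to 196 and 169 to 204 CPM. Smarcal1, the gene most like Lgals3bp, stood at 57.4 CPM, against 44.9 to 46.9 and 41.4 to 43.0 CPM.

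The fibroblast marker share was 0.0729% in Pracinostat library 1, against 0.00248 to 0.00566% in the other treated libraries, while the DMSO libraries ran from 0.00245 to 0.117%. The mean score of the enzymes that build galactose-bearing glycans was 0.269 in Pracinostat library 4, against -0.01 to 0.03 in the other treated libraries and -0.17 to -0.04 with DMSO.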

How the results depend on the processing

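In simulated data of this size 31.3% of 2-fold, 81.6% of 4-fold and 85.4% of 8-fold differences were called. There 200 genes were changed per run, so the rates can be too high for a lone changed gene. Each simulated gene had the spread typical of its level, whereas Lgals1 and Lgals3 spread more than 96.8% and 98.1% of like genes. These rates therefore do not hold for Lgals1 and Lgals3, whose intervals are wide. No gene was called under 13 of 17 alternative settings; 63 were called with no low-count filter, 27 with DESeq2, 4 with the replicate number as a block, and 0 to 3 when 1 library was left out. Of 85 values of the 5 members under an alternative, 82 kept their direction and none passed the threshold (smallest adjusted p 0.618). Leaving out 1 library gave -0.60 to 0.0737 for Lgals1, -1.03 to -0.41 for Lgals3, 0.12 to 0.20 for Lgals3bp, -0.25 to 0.15 for Lgals8 and 0.02 to 0.25 for Lgals9, and Lgals8 was 0.19 without both collagen-rich libraries. Same-numbered DMSO and Pracinostat samples had correlations of deviations of 0.04, -0.04 and 0.07. Those of differently numbered samples ran from -0.074 to 0.0511. Such values cannot exclude a shared batch, and the labels do not say whether the numbers pair samples. With the replicate block, which leaves out Pracinostat 4, the members gave -0.21, -0.68, 0.16, -0.13 and 0.17 for Lgals1, Lgals3, Lgals3bp, Lgals8 and Lgals9.

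Other genes near 0 changed sign, and the cause was not tested. Leaving out 1 library gave -0.86 to 0.44 for Lgalsl, -0.0074 to 0.30 for Havcr2, -0.0366 to 0.0647 for Mertk, -0.29 to 0.0559 for Trem2, -0.0903 to 0.24 for Ptprc, -0.33 to 0.83 for Trim16, -0.24 to 0.25 for Irf7, -0.17 to 0.22 for Isg15, -0.0435 to 0.35 for Spp1 and -0.72 to 0.18 for Gpnmb. The block gave 0.22 for Lgalsl, -0.0407 for Mertk, -0.0179 for Ptprc and 0.0875 for Irf7. Without both collagen-rich libraries the values were 0.50 for Lgalsl, -0.0651 for Trim16, 0.13 for Irf7 and -0.19 for Spp1. Irf7 was 0.0493 by limma-voom. Mertk was -0.007 with RLE scaling, -0.0039 with upper quartile scaling, -0.0138 unscaled, -0.0071 by DESeq2 and -0.0013 by limma-voom. Lgals4 was -3.33 by limma-voom and -3.91 with the block. The median of the glycan-building enzymes was 0.07 without Pracinostat 4 and 0.04 with the block.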
